A study of Mus musculus with 6 samples.

Results

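The genes described here encode parts of the nuclear envelope, namely the lamins Lmna, Lmnb1 and Lmnb2, the inner membrane proteins Sun1, Sun2, Emd and Tmpo, and the nesprins Syne1 and Syne2. These 9 genes were chosen by family, with their counts and their splicing values in these libraries already known, and all 9 were found among 52550 genes in the count table and among 17621 genes tested. Their levels in the libraries labelled KD against the controls, and the inclusion of their exons, are therefore given as a description. Their positions and the exon numbers below are those of GRCm38 with GENCODE vM21.

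The data come from the hippocampus of control mice, titled WT in GEO, and of mice that GEO labels hnRNPDL-KD (L-DL KD). Each group has 3 libraries, and how mice were shared among them is not given. In the study's methods, both groups were male wild-type C57BL/6 J mice. Their CA1 areas were injected on both sides with adeno-associated virus (AAV) at 8 weeks of age. The controls received control shRNA, and the others 4 L-DL shRNAs in tandem behind H1 promoters. The WT titles themselves name no injection. In the virus, the CamkIIα promoter drove only zsGreen, a marker that makes infected neurons visible, and the control virus had the higher titre. Poly(A) RNA was sequenced in read pairs, and raw counts per gene and junction counts per splicing event were deposited.

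The lamins form a meshwork under the inner nuclear membrane. SUN proteins cross that membrane and, in the space between the membranes, bind the KASH domain of nesprins, which reach from the outer membrane to the cytoskeleton, and this bridge is called the LINC complex. Emerin (Emd) and the lamina-associated polypeptide 2 (Tmpo) carry a LEM domain that binds a chromatin protein, and both bind lamins. Neurons use the LINC complex to move their nuclei during development, and A-type lamin levels in brain are known to differ between cell types.

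Hnrnpdl (ENSMUSG00000029328), the gene targeted by the shRNAs, had 176, 184 and 171 CPM (counts scaled to a common library size, with TMM factors) in the controls and 217, 150 and 173 CPM in the KD-labelled libraries. Its log2 fold change was 0.03 (SE, the standard error, 0.12; adjusted p = 0.898, edgeR quasi-likelihood test with Benjamini-Hochberg adjustment), so the counts do not show the knockdown that the label names. The counts cover all transcripts of the gene, and its long isoform was not measured apart. The paper reports reduced L-DL in injected hippocampus by immunoblot, a protein measure that these RNA counts do not give. The sample labels also name the same mice both as knockdown and as -/-, and the group is called "KD-labelled" throughout. Library totals ranged from 16052529 to 17913064 counts. L-DL KD replicate 1 stood apart: its deviations from the mean of all 6 libraries correlated at r = 0.167 and 0.106 with those of L-DL KD replicates 2 and 3, which correlated with each other at 0.633 (across 16119 genes, a description). Markers of 6 cell types were read as well, and the lists differed in how far they moved. Of 10 microglial markers 10 were called higher (summed level 1390 to 1740 CPM in the controls and 2910 to 3790 CPM in the KD-labelled libraries), and of 10 neuronal markers 9 were called lower and 1 higher (9180 to 9650 and 5700 to 6420 CPM). Of 7 markers of mural cells and fibroblasts 6 were called higher (179 to 221 and 302 to 442 CPM). Of 8 endothelial markers 4 were called higher (333 to 373 and 380 to 449 CPM), and of 8 astrocyte markers 1 was called higher and 3 lower (7950 to 8100 and 6170 to 7330 CPM). Of 8 oligodendrocyte markers 1 was called higher (7970 to 8530 and 6900 to 10100 CPM). No marker of any list was at 0 in any library. The part of these cell types in the results below was not tested, and in bulk tissue fewer cells of a type and less RNA per cell cannot be told apart.

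The alternative exons on which the splicing results turn are shown first, as they stand in the annotated transcripts. Sun1 (chromosome 5, plus strand) has a run of coding exons that are used in different combinations, and 3 of them carry the differences described below. In these lines the alternative exon is in capitals, between 20 bases of each neighbouring exon in lower case.
Sun1 192 nt exon: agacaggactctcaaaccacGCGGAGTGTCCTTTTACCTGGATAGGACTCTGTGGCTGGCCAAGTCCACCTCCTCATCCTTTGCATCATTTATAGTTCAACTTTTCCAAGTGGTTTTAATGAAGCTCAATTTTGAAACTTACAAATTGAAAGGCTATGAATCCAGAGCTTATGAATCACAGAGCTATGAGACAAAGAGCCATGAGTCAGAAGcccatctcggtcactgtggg
Sun1 66 nt exon: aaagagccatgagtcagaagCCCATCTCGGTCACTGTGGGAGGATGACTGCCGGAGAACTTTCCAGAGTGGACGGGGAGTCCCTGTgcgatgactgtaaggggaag
Sun1 111 nt exon: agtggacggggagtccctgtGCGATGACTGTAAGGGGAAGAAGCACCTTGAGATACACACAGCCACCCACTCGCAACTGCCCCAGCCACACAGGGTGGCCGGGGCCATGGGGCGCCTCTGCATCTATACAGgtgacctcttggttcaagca
They are exons 7, 8 and 9 of transcript Sun1-201, at chr5:139229753-139229944, chr5:139230773-139230838 and chr5:139231127-139231237. All 3 lengths are multiples of 3, so each exon can be used or left out without a change of reading frame, and together they add 369 nt or 123 codons to the nucleoplasmic part of SUN1. In the annotation, Sun1-201 holds all 3, Sun1-202 lacks the 192 nt exon, Sun1-206 lacks the 111 nt exon and Sun1-205 lacks all 3.

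Tmpo (chromosome 10, minus strand) has 3 neighbouring alternative exons of 120, 96 and 111 nt, which are exons 5, 6 and 7 of Tmpo-202. Together they come to 327 nt or 109 codons, the stretch that separates the long membrane-bound form LAP2β from the shorter LAP2γ. Tmpo-202 holds all 3, Tmpo-203 lacks the 120 nt exon, Tmpo-204 holds only the 111 nt exon and Tmpo-205 holds none. The exon with the largest difference between the groups, at chr10:91153278-91153397, and the one nearest the 3′ end of the gene, at chr10:91152628-91152738, are shown in the same way.
Tmpo 120 nt exon: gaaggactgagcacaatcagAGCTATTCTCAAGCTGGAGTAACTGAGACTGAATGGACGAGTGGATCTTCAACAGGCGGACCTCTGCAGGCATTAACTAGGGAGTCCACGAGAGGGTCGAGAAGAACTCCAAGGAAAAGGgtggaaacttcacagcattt
Tmpo 111 nt exon: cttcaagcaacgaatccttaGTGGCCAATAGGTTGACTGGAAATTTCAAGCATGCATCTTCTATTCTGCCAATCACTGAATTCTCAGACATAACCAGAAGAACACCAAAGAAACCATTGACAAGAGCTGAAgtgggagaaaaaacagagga

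In Syne1 (chromosome 10, minus strand), the last exon but one of Syne1-205 is an alternative exon of 59 nt at chr10:5030376-5030434, shown here because its use decides the end of the protein.
Syne1 59 nt exon: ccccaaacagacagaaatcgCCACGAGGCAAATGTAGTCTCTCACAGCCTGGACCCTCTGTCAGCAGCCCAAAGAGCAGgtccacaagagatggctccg
Its length is not a multiple of 3. With the exon the reading frame of Syne1-205 ran 99 codons from the start of the exon to the stop codon, and without it the frame met a stop codon after 11 codons. The lost stretch holds the KASH domain, which anchors nesprin-1 in the membrane, and a form without KASH is known from the central nervous system.

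Syne1 and Syne2 each have an alternative exon of 69 nt, which is exon 137 of Syne1-205 (chr10:5045266-5045334) and exon 32 of Syne2-202 (chr12:76100028-76100096). The Syne1 exon was picked after its values were seen. Placed side by side without gaps, the exons shared 44 of 69 bases (63.8%), which are in capitals here.
Syne1 69 nt exon: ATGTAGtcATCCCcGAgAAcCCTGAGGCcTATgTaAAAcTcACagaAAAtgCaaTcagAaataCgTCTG
Syne2 69 nt exon: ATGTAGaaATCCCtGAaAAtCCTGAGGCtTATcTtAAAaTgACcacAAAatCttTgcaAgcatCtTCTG

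Of the 9 genes, 5 were called higher in the KD-labelled libraries (Lmna, Syne1, Sun2, Syne2 and Tmpo), and 4 were not called. None was called lower by edgeR or DESeq2, and 0 were lower at an unadjusted p under 0.05. Over all 17621 genes tested, 30.5% were called, 15.6% higher and 15.0% lower. The same 5 genes had libraries that did not overlap between the groups, which held for 47.2% of all genes tested. The median log2 fold change of the 9 genes was 0.26, and it was 0.01 over all genes tested. Since the genes were chosen with these values known, nothing is read from these shares. Without L-DL KD replicate 1 the number called was also 5.

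**Figure D1:**
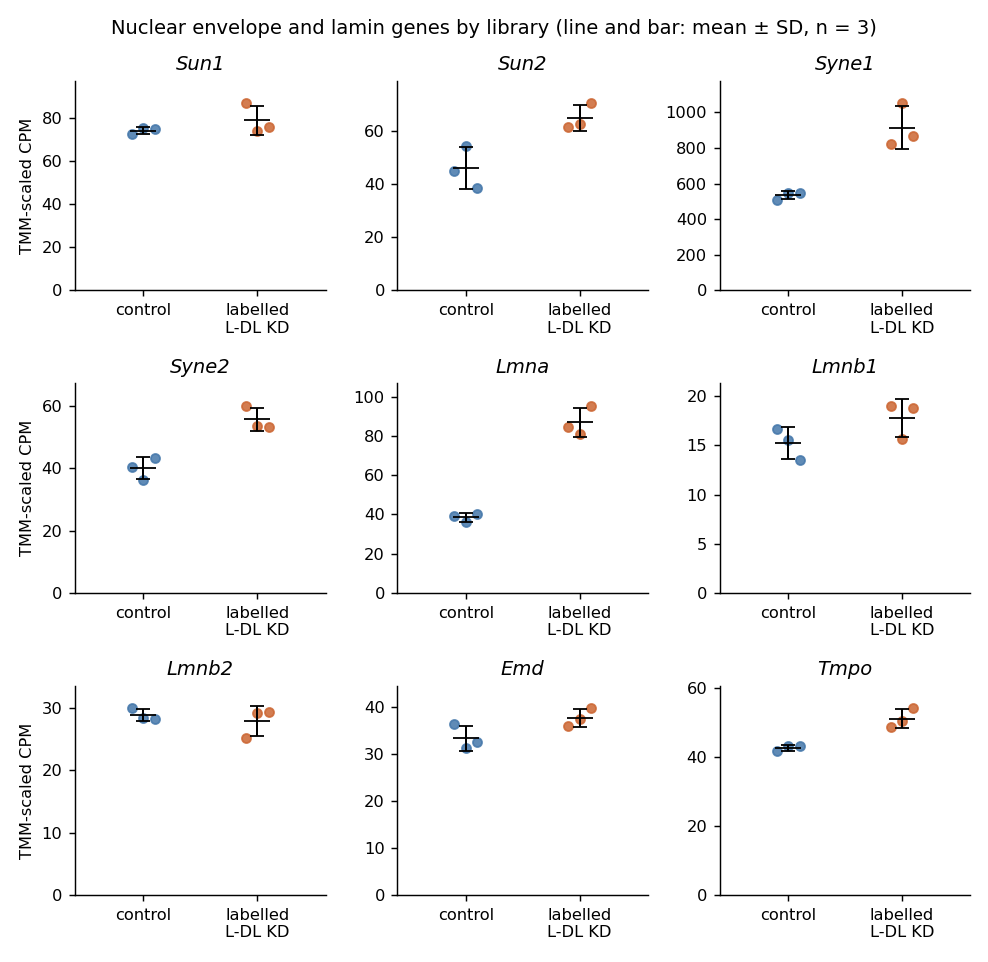
TMM-scaled CPM (y axis, from 0) of each of the 9 genes in the 3 control libraries (blue) and the 3 KD-labelled libraries (orange), with mean ± SD. The groups lie apart for Sun2, Syne1, Syne2, Lmna and Tmpo and overlap for Sun1, Lmnb1, Lmnb2 and Emd.

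Lmna (ENSMUSG00000028063, chr3:88480147-88509956), which encodes the A-type lamins A and C, had the largest difference of the 9. It had 633, 614 and 634 counts in controls 1 to 3 and 1533, 1439 and 1597 counts in the KD-labelled libraries. Scaled, this was 39, 36.1 and 40.3 CPM against 84.5, 80.7 and 95.2 CPM, so that the lowest value of the second group was above the highest control by far more than the spread within either group. The log2 fold change was 1.17 (SE 0.09, adjusted p = 0.000159), a 2.26-fold difference. The call held under every alternative run. The summed levels of the microglial, the endothelial and the mural and fibroblast markers, given above, also lay apart in this direction, and their part in the Lmna difference was not tested.

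The B-type lamins, which stay bound to the membrane through a lipid anchor, were not called. Lmnb1 (ENSMUSG00000024590, chr18:56707813-56753424) had 16.7, 15.5 and 13.5 CPM in the controls and 19, 15.6 and 18.8 CPM in the KD-labelled libraries. Its log2 fold change was 0.22 (SE 0.14, adjusted p = 0.25), from 213 to 344 counts per library, and the groups overlapped. Lmnb2 (ENSMUSG00000062075, chr10:80901203-80918245) had 29.9, 28.4 and 28.2 CPM against 25.2, 29.2 and 29.3 CPM, a log2 fold change of -0.05 (SE 0.10, adjusted p = 0.758). Its lowest value was in L-DL KD replicate 1, and without that library the log2 fold change was 0.02. The difference between Lmna and the B-type lamins in response was not tested.

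Syne1 (ENSMUSG00000096054, chr10:5020917-5551482), which encodes nesprin-1, had by far the most counts of the 9 genes. The controls had 8267, 9306 and 8615 counts (510, 548 and 547 CPM), and the KD-labelled libraries had 14963, 18765 and 14602 counts (824, 1050 and 870 CPM). L-DL KD replicate 2 was the highest. The log2 fold change was 0.78 (SE 0.10, adjusted p = 0.00119), a 1.71-fold difference, and the call held under every alternative run.

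Syne2 (ENSMUSG00000063450, chr12:75818134-76110926), which encodes nesprin-2, had 40.6, 36.4 and 43.3 CPM in the controls and 60.1, 53.8 and 53.4 CPM in the KD-labelled libraries. The groups lay apart at counts of 619 to 1091 per library. Its log2 fold change was 0.48 (SE 0.09, adjusted p = 0.00621), and the call held under every alternative run.

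Of the SUN proteins, Sun2 was called and Sun1 was not. Sun2 (ENSMUSG00000042524, chr15:79724070-79742536) had 45, 54.4 and 38.6 CPM in the controls, the widest relative spread of the 9 genes among controls, and 61.6, 62.4 and 70.3 CPM in the KD-labelled libraries. Its log2 fold change was 0.49 (SE 0.13, adjusted p = 0.02). The call was lost without control replicate 1 (adjusted p = 0.0737), without control replicate 3 (0.0609) and without L-DL KD replicate 3 (0.0555). Sun1 (ENSMUSG00000036817, chr5:139200637-139249840) had 72.4, 75.4 and 74.9 CPM against 86.8, 74 and 76.1 CPM, a log2 fold change of 0.09 (SE 0.08, adjusted p = 0.432). L-DL KD replicates 1 and 3 were above all controls and replicate 2 lay among them.

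Of the LEM-domain genes, Tmpo (ENSMUSG00000019961, chr10:91147571-91181315) had 41.7, 43.1 and 43.2 CPM in the controls and 48.8, 50.6 and 54.1 CPM in the KD-labelled libraries. The groups lay apart by a small margin, and the log2 fold change was 0.26 (SE 0.07, adjusted p = 0.0284). This call was lost with a library left out, other than L-DL KD replicate 1, at adjusted p values of 0.0602 to 0.104, and with no filter on low counts (0.0682). Emd (ENSMUSG00000001964, chrX:74254687-74261548) had 36.2, 31.2 and 32.4 CPM against 35.9, 37.3 and 39.6 CPM, a log2 fold change of 0.18 (SE 0.09, adjusted p = 0.178), and 1 control lay among the other group.

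Per kilobase of merged exons, the control levels of the 9 genes spread from 13.2 ± 1.04 CPM per kb for Emd and 13.2 ± 0.539 for Syne1 (SD, n = 3) down to 1.5 ± 0.13 for Syne2. Between them came Sun1 (9.77 ± 0.217), Sun2 (8.49 ± 1.47), Lmnb2 (6.72 ± 0.218), Lmna (6.59 ± 0.363), Lmnb1 (5.14 ± 0.541) and Tmpo (3.88 ± 0.0768), all in CPM per kb. Of the 8 neighbouring pairs in this order 5 did not overlap, and the pairs Emd and Syne1, Sun1 and Sun2, and Lmnb2 and Lmna did. Per length, Lmna was thus not separated from Lmnb2 in the controls, while their CPM without length, given above, did not overlap. The merged length counts every annotated exon, 40491 nt for Syne1 and 26726 nt for Syne2, so a gene whose short transcripts dominate reads too low on this scale.

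The splicing table lists 50 events in 6 of the 9 genes and none in Lmna, Lmnb1 or Lmnb2. Inclusion is given as PSI, the share of the form that holds the segment, after both counts were divided by the effective length of their form. Of the 50 events 25, in 5 genes, had enough counts of both forms to be tested, and 0 of 25 were called at an adjusted p under 0.05 by edgeR (lowest adjusted p = 0.0953), beside 0.255% of all 18829 events tested. At an unadjusted p under 0.05 there were 5 of 25, beside 13.3% of all events, and limma on the log2 ratio of the forms also gave 0 calls and 5 at that unadjusted level. PSI values that did not overlap between the groups were seen in 9 of 25 events, beside 18.4% of all tested events. The table gives no replicate numbers, and the libraries of each group are given in its order. These 9 share reads: 6 of them are readings of the same Sun1 exons, 2 are in Tmpo and 1 is in Syne1.

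The Sun1 exon of 111 nt had the lowest p of the 25. Where exon 8 precedes it and exon 10 follows it, it had 19, 20 and 25 inclusion counts and 24, 24 and 29 skipping counts in the controls. The libraries labelled L-DL KD had 64, 49 and 81 inclusion counts and 12, 16 and 9 skipping counts. PSI was 0.313, 0.324 and 0.332 in the controls and 0.754, 0.638 and 0.838 in the other group, so the more common form differed between the groups in every library. Mean PSI was 0.323 ± 0.00936 against 0.743 ± 0.101 (SD, n = 3), a difference of 0.421. In edgeR's fit across all events its p was 0.000796 before and 0.0953 after adjustment. The gene's total counts, given above, overlapped between the groups.

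The Sun1 exon of 192 nt, which lies before exon 8, lay apart in the same direction in 2 of its 5 tested readings. As a cassette before exon 8, its inclusion counts were 2, 18 and 20 in the controls and 43, 37 and 48 in the KD-labelled libraries, with skipping counts of 19, 22 and 36 and of 22, 18 and 23. PSI was 0.05, 0.29 and 0.217 against 0.494, 0.507 and 0.511. The difference was 0.318, and its p in edgeR's fit across all events was 0.0101 (adjusted p = 0.236). The first control is the lowest of the 6 and rests on 21 counts. Read against exon 10 as a mutually exclusive pair, the same 192 nt exon had a PSI of 0.0238, 0.145 and 0.15 in the controls and 0.23, 0.161 and 0.258 in the other group (difference 0.11, adjusted p = 0.451). Without the first control that difference was 0.0688. Exon 10, read as a cassette after exon 8, was itself included at 0.96 or above in every library, so it is hardly an alternative here. The other 3 readings, given after their values were seen, overlapped between the groups. As a cassette before exon 10 its PSI was 0.0714, 0.391 and 0.538 against 0.75, 0.429 and 0.765 (difference 0.314, adjusted p = 0.454). Set against the 66 nt exon it was 0.0995, 0.519 and 0.456 against 0.541, 0.495 and 0.609 (difference 0.19, adjusted p = 0.641). Set against the 111 nt exon it went the other way, at 0.225, 0.494 and 0.753 against 0.427, 0.449 and 0.438 (difference -0.0526, adjusted p = 0.881).

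The 66 nt exon between them overlapped between the groups when read as a cassette. Skipped or used between the exon before the 192 nt exon and exon 10, it had a PSI of 0.632, 0.721 and 0.823 in the controls and 0.819, 0.653 and 0.768 in the KD-labelled libraries (adjusted p = 0.974). All 3 readings of this exon given here were chosen after their values were seen. Set against the 111 nt exon as its alternative, its PSI was 0.866, 0.797 and 0.924 in the controls and 0.529, 0.671 and 0.442 in the other group, a difference of -0.315 (adjusted p = 0.183), and this reading shares the junction counts of the 111 nt exon. Set against exon 10, itself nearly always used, with the 192 nt exon before it, its PSI was 0.0403, 0.111 and 0.0714 against 0.117, 0.188 and 0.122 (adjusted p = 0.557). Further along Sun1, the choice between acceptor sites 3 nt apart, which had the most counts of the tested Sun1 events, gave 0.515, 0.716 and 0.794 against 0.745, 0.602 and 0.729 (adjusted p = 0.97).

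**Figure D2:**
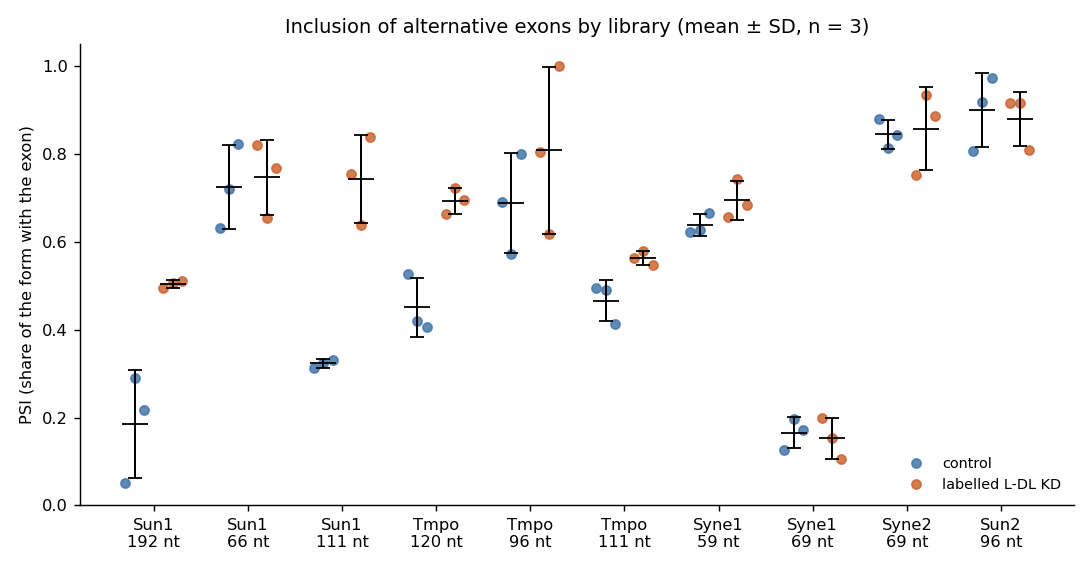
PSI (y axis, 0 to 1) of 10 alternative exons in the 3 control libraries (blue) and the 3 KD-labelled libraries (orange), with mean ± SD. The groups lie apart for the Sun1 exons of 192 and 111 nt and for the Tmpo exons of 120 and 111 nt, and the 69 nt exon is mostly left out of Syne1 and mostly used in Syne2.

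In Tmpo the 120 nt exon was the one with the largest difference. It had 20, 13 and 11 inclusion counts and 10, 10 and 9 skipping counts in the controls, and 46, 47 and 57 inclusion counts and 13, 10 and 14 skipping counts in the KD-labelled libraries. PSI was 0.527, 0.42 and 0.405 against 0.663, 0.723 and 0.694, a difference of 0.243 whose p in edgeR's fit across all events was 0.044 (adjusted p = 0.368). The 111 nt exon had a PSI of 0.495, 0.491 and 0.412 against 0.564, 0.58 and 0.548 (difference 0.098, adjusted p = 0.719), which lay apart by a small margin. The 96 nt exon, added after its values were seen, overlapped between the groups at 0.691, 0.572 and 0.799 against 0.805, 0.618 and 1 (adjusted p = 0.737).

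The 59 nt exon of Syne1, whose skipping removes KASH, had the most counts of the 25 tested events, with 266 to 583 per library. PSI was 0.622, 0.626 and 0.666 in the controls and 0.657, 0.743 and 0.683 in the KD-labelled libraries. The first KD-labelled library lay below the highest control, so the groups overlapped, and the difference of 0.0566 had an adjusted p of 0.633. Without the second KD-labelled library the difference was 0.0321. Both forms were thus plentiful in every library, with the KASH-coding form at between 0.622 and 0.743 of the total.

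The 69 nt exons of Syne1 and Syne2, alike in sequence, were used to different extents. In Syne1 the PSI was 0.127, 0.197 and 0.171 in the controls and 0.199, 0.154 and 0.106 in the other group (adjusted p = 0.913). In Syne2 it was 0.879, 0.813 and 0.843 against 0.751, 0.934 and 0.887 (adjusted p = 0.973). Every Syne2 value lay above every Syne1 value, and neither gene's groups lay apart. The difference between the genes was not tested, and each was counted on its own junctions.

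In Sun2 the cassette exon of 96 nt (chr15:79737473-79737568, exon 5 of Sun2-201) had a PSI of 0.807, 0.918 and 0.972 in the controls and 0.916, 0.915 and 0.809 in the KD-labelled libraries (adjusted p = 0.967). In Syne1, exons 127 and 128 are listed as a mutually exclusive pair with a PSI of 0.515, 0.52 and 0.515 against 0.507, 0.463 and 0.509 (difference -0.0234, adjusted p = 0.889). Without the second KD-labelled library that difference was -0.00843. Taken singly, both exons were included at 0.988 or above in every library, so a PSI near the middle here reads as both exons being used together.

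The inclusion counts of Syne1 exons were then followed along the gene, a view chosen after values were seen. They were scaled to the summed junction counts of each library, without TMM factors (junction CPM). Syne1-205 has 146 exons, and the table lists 15 of them as cassette exons. In 12 of the 15 the level was higher in all 3 KD-labelled libraries than in all 3 controls. Syne1 as a whole also lay apart, as given above, so this count repeats the gene's call. No share over all listed exons was taken to set beside it. The 6 listed exons from exon 127 to exon 145, at the 3′ end, differed by 1.39 to 1.97-fold (median 1.71). The 5 from exon 80 to exon 96 differed by 2.22 to 3.54-fold (median 2.29), with 5 of 5 apart.

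Exon 80 carried the widest of these differences, with 18, 38 and 30 inclusion counts in the controls and 82, 171 and 85 in the KD-labelled libraries. Exon 60 had 3, 3 and 3 counts against 23, 30 and 15, which rests on very few control counts. Exons 6, 33 and 137 were the 3 whose groups overlapped, and exon 6, with 1 to 9 counts per library, was the one whose mean was lower in the KD-labelled libraries. The second KD-labelled library of the table was the highest of its group in 10 of the 15 exons. Exons of one gene share transcripts and are not replicates, and the difference between the stretches was not tested. No measure of RNA integrity was at hand, and its part was not tested.

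Level fell from the 3′ end towards the middle of Syne1 and was high again at exon 19. Exon 137, mostly skipped, stood out near the 3′ end with a control mean of 6.92 junction CPM. In the controls the mean level was 55.6 at exon 133, 4.13 at exon 80, 0.432 at exon 60 and 0.908 at exon 33, in junction CPM. Exon 19 stood at 36.2 in the controls and 63.1 in the KD-labelled libraries, with 193, 296 and 265 counts against 497, 627 and 339. In the annotation exon 19 is held by Syne1-205 and also by Syne1-201, a coding transcript of 32 exons that covers only the 5′ part of the gene. Exon 19 was thus far better covered than exons 33 and 60, and its ratio of 1.74 stood beside 1.76 at exon 145 and 1.71 for the whole gene. Exon 6, the listed exon nearest the 5′ end, was as thinly covered as exon 33, at 0.808 junction CPM in the controls.

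**Figure D3:**
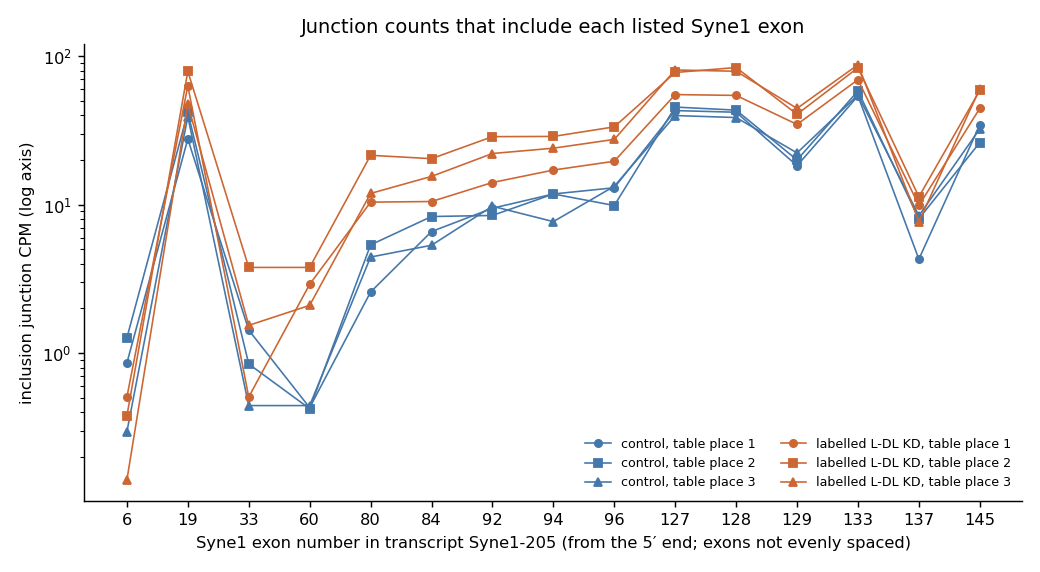
Inclusion junction CPM (y axis, log scale) of the 15 listed Syne1 exons, in the order of exon number in Syne1-205 from the 5′ end (x axis), 1 line per library. Levels are high at exon 19 and from exon 127 on, lowest at exons 6, 33 and 60, and the lines of the KD-labelled libraries (orange) lie above the controls (blue) from exon 80 to exon 133.

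Other genes of the nuclear envelope were taken from a list of 63 names in 5 groups, with Nup58 also under its older name Nupl1, and 59 were tested. Of these 14 were called higher (23.7%), 6 lower (10.2%) and 39 were not called, beside 15.6% and 15.0% of all genes tested. The median log2 fold change of the 59 was 0.07. Without a control library the number called fell from 20 to between 12 and 13.

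Of the 9 tested outer and inner membrane proteins 3 were called higher (Tmem43, Nrm and, named after its values were seen, Lrmp at 0.64 on the log2 scale) and 1 lower. Tmem43, an inner membrane protein that binds lamins and emerin, rose from 44.3, 48.3 and 41.7 CPM to 99.2, 86 and 88.6 CPM (log2 fold change 1.03, SE 0.09, adjusted p = 0.000227). Nrm, the inner membrane protein nurim, rose from 3.64, 3.24 and 2.86 CPM to 5.07, 5.05 and 6.08 CPM (log2 fold change 0.73, adjusted p = 0.0242). Syne4, which encodes nesprin-4, a nesprin that binds kinesin, fell from 8.14, 6.71 and 10 CPM to 3.03, 3.42 and 4.53 CPM (log2 fold change -1.18, adjusted p = 0.00666). Syne3, which encodes nesprin-3 and was added after its values were seen, was not called (log2 fold change 0.28, adjusted p = 0.309) and its groups overlapped.

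Genes from here on whose fold change alone is given were named after their values were seen. Of the 11 LEM-domain, lamin-binding and torsin genes 3 were called higher (Banf1 at 0.53, Lemd2 at 0.38 and Tor1aip2 at 0.28 on the log2 scale) and 1 lower. Lemd3, which encodes the LEM protein MAN1, fell from 46.8, 42.1 and 51 CPM to 36.5, 32.9 and 29.9 CPM (log2 fold change -0.50, adjusted p = 0.0104). Of the 6 lamin-processing genes, most of which farnesylate, cut or methylate lamin tails, 2 were called lower (Narf at -0.43 and Icmt at -0.29 on the log2 scale). None, or 0 of 6, was called higher by edgeR or DESeq2, and 1 was higher at an unadjusted p under 0.05 (Zmpste24, the protease that cuts prelamin A, at 0.29 on the log2 scale, adjusted p = 0.0556). Of 29 nuclear pore genes 6 were called higher and 2 lower (Pom121, and Ahctf1 at -0.43 on the log2 scale). Pom121, a membrane nucleoporin, fell from 94.9, 96.4 and 85.6 CPM to 73.4, 63.4 and 67.5 CPM (log2 fold change -0.44, adjusted p = 0.00571). Of the 4 cytoskeletal linkers 2 were called higher (Fhod1, and Dst at 0.61 on the log2 scale). Fhod1, a formin that binds nesprin-2 and links it to actin, rose from 15.9, 17.6 and 17.3 CPM to 27.4, 30.4 and 35.1 CPM (log2 fold change 0.87, SE 0.12, adjusted p = 0.00157).

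**Figure D4:**
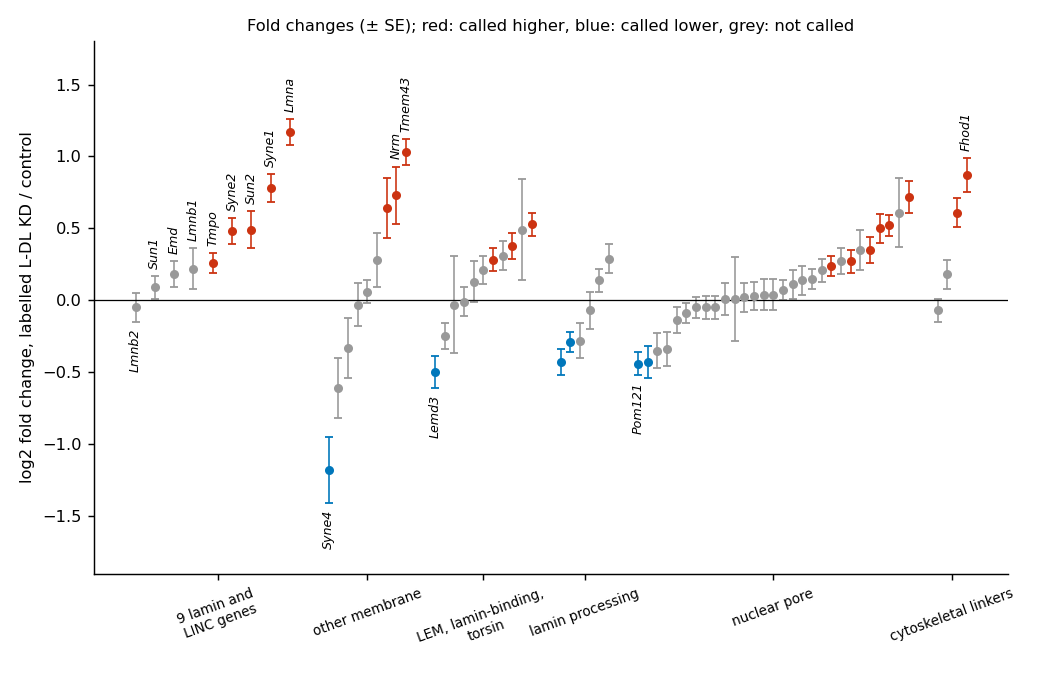
Log2 fold change (y axis, ± SE) of the 9 lamin and LINC genes and of 59 other nuclear envelope genes in 5 groups (x axis), 1 point per gene. Red points were called higher in the KD-labelled libraries, blue ones lower, and Lmna at 1.17 and Tmem43 at 1.03 stand highest while Syne4 at -1.18 stands lowest.

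Some of the counts may hold reads of overlapping genes. Sun1 and Sun2 each overlap an annotated antisense transcript, Syne1 and Tmpo each overlap a gene on the other strand, and Emd overlaps a processed pseudogene. Whether counting used strand is not given in the sources used here. Lmna, Lmnb1 and Lmnb2 overlap no other annotated gene.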

How the data were processed

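Poly(A) RNA from the hippocampus was read in pairs, in 3 control libraries and 3 libraries labelled L-DL KD. The authors deposited gene-level raw counts and, from rMATS, other raw values, namely inclusion and skipping junction counts and form lengths of 40961 events. The submitters' processing notes name mm10, HISAT2 2.1.0, Bowtie 1.1.2 and HTSeq 0.6.1, with no roles. Their p, FDR and PSI difference columns hold their own comparison and were not used. In the splicing table the first sample was taken as L-DL KD, from the study's definition of its PSI difference as KD minus control. Its columns carry no replicate numbers, and the libraries are given in table order. That order fitted the gene counts, since each junction library correlated best with the gene counts of its own place (r = 0.89 to 0.934 across 5039 genes).

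Genes that reached 10 counts in 3 or more libraries were tested in edgeR (version 4.0.16, TMM, quasi-likelihood test) under R (version 4.3.3), and Benjamini-Hochberg adjusted p values under 0.05 were called. Events with a mean of at least 20 junction counts per library and at least 1 of each form were tested in 1 edgeR model over both forms, with an effect for each library. PSI was computed per library. Both fits were tested on simulated data. Symbols were matched for 52403 of 52550 IDs. Exon numbers and sequences came from GENCODE vM21 (GRCm38) transcripts. Tables were made in Python (version 3.11.15) with pandas (version 2.3.3).

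The 9 genes and all lists (5 groups of other nuclear envelope genes, 6 of cell type markers) were chosen with earlier results of these data known. Events were named if called, then, for each gene, up to 4 whose PSI values lay apart by the size of the difference, and the 1 with most counts, where of events of the same type and the same segment the one with most counts was kept. Of the other envelope genes, the 3 largest rises and 3 largest falls among those called were named. Nothing given for the samples says how tissue was shared among libraries, so p values measure the spread between these libraries, which may be technical. Alternatives were library-size scaling, DESeq2 (version 1.42.0), no filter, a replicate block, limma (version 3.58.1) with a pseudocount of 0.5, other count minimums, PSI without form lengths, CPM without length and leaving out each library. A block by table place for the events was added after seeing the data.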

Additional observations from a re-analysis of the deposited data

How the results depend on the processing

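Among the 9 genes, 5 were called, also with library-size scaling and DESeq2, and 4 with no filter on low counts; with a library left out the number was 3 to 5. Sun2 and Tmpo were the genes whose calls were lost, as given with their values, and Lmnb2 ranged from -0.08 to 0.02 on the log2 scale, above 0 without L-DL KD replicate 1. Among the 59 other nuclear envelope genes the number called was 20, and 12 to 25 with a library left out. Hnrnpdl ranged from -0.13 to 0.15 on the log2 scale with a library left out, was below 0 without control replicate 3 (-0.00081) and without L-DL KD replicate 1 (-0.13), and was never called. The tested events of the 9 genes gave 0 calls in edgeR under every alternative, with 3 to 5 at an unadjusted p under 0.05 with a library left out. With a library left out, the PSI difference changed sign for events that were not called: it ranged from -0.0636 to 0.0761 for the 3 nt Sun1 acceptor, -0.0646 to 0.0179 for the 96 nt Sun2 exon and -0.0261 to 0.065 for the 69 nt Syne2 exon. The number of neighbouring genes in the order of control levels that did not overlap was 5, and 4 by CPM without length. The cause of these changes was not tested.

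The replicate numbers did not pair the libraries: the deviations of same-numbered libraries correlated at r = 0.07, 0.2 and -0.181 over 16119 genes, and other pairs at -0.282 to 0.209. With the number as a replicate block, 4 of the 9 genes were called, Tmpo being lost (adjusted p = 0.0548), and 16 of the 59 other genes. For the events, a replicate block by place in the table, chosen after seeing the data, gave 0 calls among the 25 tested events (lowest adjusted p = 0.0807) and 143 over all 18829 events, where the fit without it gave 48, leaving out a library 0 to 52, a minimum of 5 counts 130 and limma 0. The 5 readings of the 192 nt Sun1 exon rest on 8 to 88 junction counts per library. Raising the minimum to 50 also gave 0 calls (lowest adjusted p = 0.0838), while leaving out a library moved the lowest adjusted p to between 0.156 and 0.303. Sun1 read 0.02 to 0.14 and Lmnb1 0.14 to 0.32 on the log2 scale with a library left out.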
